A study of Homo sapiens with 10 samples.

Results

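The vacuolar H+-ATPase (V-ATPase) subunits described here are 10 genes, ATP6V1A, ATP6V1B2, ATP6V1C1, ATP6V1D, ATP6V1E1, ATP6V1G1 and ATP6V1H of the cytosolic V1 sector and ATP6V0B, ATP6V0C and ATP6V0D1 of the membrane V0 sector. They were measured by 12 probe sets, 9 for V1 and 3 for V0, out of 12558 probe sets and 8226 singly annotated genes in the table. All probe sets whose platform annotation named a single member gene were taken, and the genes themselves were chosen from the subunits on the array with the difference between the shRNA groups on these same arrays already known. Their log2 differences are therefore given as a description, with standard errors and without p-values, and nothing is inferred from how many of them were higher. All 12 probe sets passed the filter on dim values.

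The STK38 shRNA arrays came from ST486, a human Burkitt's lymphoma B cell line, 60 h after transduction with a lentivirus that expressed an shRNA against STK38, a kinase of the NDR family (5 arrays). The arrays they were set against held the same line at 60 h with a lentivirus carrying a non-target control shRNA (5 arrays). Both groups thus carried a lentiviral hairpin, and the labels name a single STK38 hairpin, so effects of that hairpin on other transcripts and effects of STK38 loss cannot be told apart. The labels do not tell whether replicates were separate cultures, so the errors measure the spread between arrays, which may be technical. Expression was read on 1-colour Affymetrix HG-U95Av2 arrays and is given on the log2 scale, on which a difference of 1 is a fold of 2 in signal; levels of different probe sets are not compared, because their probes bind with different strength.

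The V-ATPase is a rotary pump that hydrolyses ATP in V1 to drive protons through V0 into lysosomes, endosomes and the secretory pathway. In V1, A and B subunits form the head that hydrolyses ATP, a central shaft with subunit D turns inside it, E and G subunits form peripheral stalks that hold it still, and C and H subunits link the stalks to the membrane sector and control whether V1 and V0 stay joined. In V0, a ring of proteolipid c and c'' subunits carries the protons, subunit d couples the ring to the shaft, and an a subunit holds the proton half-channels. The lumen it acidifies is where lysosomal hydrolases work, and the pump also takes part in amino acid sensing by mTORC1 on the lysosomal surface. Transcription factors of the MIT-TFE family, such as TFEB, are known to drive many of these genes through E-box motifs with the core CACGTG, a core that MYC with MAX also binds.

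Promoters of the 10 genes were read because the members with the largest differences belong to different parts of the pump, and the core of that E-box can be looked for in each. RefSeq windows from 250 bases before to 50 bases after the transcription start (GRCh38.p14) were found for 6 members, ATP6V1D, ATP6V1E1, ATP6V1G1, ATP6V0B, ATP6V0C and ATP6V0D1; ATP6V1A, ATP6V1B2, ATP6V1C1 and ATP6V1H were not matched. The palindrome CACGTG, the same on both strands, was found in 3 of the 6, with its first base at -57 and -39 from the start in ATP6V0B, at -59 in ATP6V0D1 and at -58 in ATP6V1G1. It occurs in 8.77% of the 27305 genes with a window and in 1 of the 12 other subunits with a window. Among genes tested on the array it occurs in 12.9% of those called higher, 14.7% of those called lower and 12.8% of those not called. The longer palindrome with GT before and AC after this core, which overlaps it by construction, was found in ATP6V1G1 and in 0.421% of genes. The windows of those 3 genes are printed with the matches in capitals, and that of ATP6V1D, which had no match and a large difference, is printed beside them.

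The windows are those of ATP6V0B (chr1:43974710-43975009, plus strand), ATP6V0D1 (chr16:67481108-67481407, minus strand), ATP6V1G1 (chr9:114587519-114587818, plus strand) and ATP6V1D (chr14:67359755-67360054, minus strand), each 5′ to 3′ on the gene's strand.
ATP6V0B: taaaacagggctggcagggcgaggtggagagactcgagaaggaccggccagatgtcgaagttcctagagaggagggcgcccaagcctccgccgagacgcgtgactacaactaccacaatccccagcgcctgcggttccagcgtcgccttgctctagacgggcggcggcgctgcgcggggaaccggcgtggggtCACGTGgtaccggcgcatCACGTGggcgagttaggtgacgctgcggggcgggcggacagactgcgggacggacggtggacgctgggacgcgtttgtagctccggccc
ATP6V0D1: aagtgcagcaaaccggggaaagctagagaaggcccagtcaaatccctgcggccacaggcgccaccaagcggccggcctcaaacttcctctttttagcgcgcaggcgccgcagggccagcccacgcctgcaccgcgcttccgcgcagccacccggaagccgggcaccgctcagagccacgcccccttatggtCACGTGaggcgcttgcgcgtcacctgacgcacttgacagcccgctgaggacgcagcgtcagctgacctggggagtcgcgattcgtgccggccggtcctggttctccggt
ATP6V1G1: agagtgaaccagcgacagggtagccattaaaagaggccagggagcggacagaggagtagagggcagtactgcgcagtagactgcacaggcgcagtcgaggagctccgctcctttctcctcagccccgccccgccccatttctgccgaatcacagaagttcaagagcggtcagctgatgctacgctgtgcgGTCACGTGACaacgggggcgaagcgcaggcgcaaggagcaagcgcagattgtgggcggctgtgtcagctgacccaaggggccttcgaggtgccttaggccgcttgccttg
ATP6V1D: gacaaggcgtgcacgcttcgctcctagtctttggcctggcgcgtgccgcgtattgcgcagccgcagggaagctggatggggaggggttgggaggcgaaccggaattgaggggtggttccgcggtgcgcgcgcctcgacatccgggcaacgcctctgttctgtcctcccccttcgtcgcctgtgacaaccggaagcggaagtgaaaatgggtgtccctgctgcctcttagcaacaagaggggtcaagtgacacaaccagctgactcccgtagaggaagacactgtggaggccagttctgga

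On the scale of log2 differences, 7 of the 12 member probe sets, each of a different gene, were called higher with the STK38 shRNA by limma (adjusted p under 0.05 over 7535 probe sets) and 0 lower, with 7 and 0 also at an unadjusted p under 0.05. Among all probe sets tested, 29.9% were called, 14.1% higher and 15.8% lower. The STK38 shRNA arrays all lay above the control arrays at 6 member probe sets, where this held for 9.33% of all probe sets tested. The member genes had a median log2 difference of 0.53 at their brightest probe sets, beside 0.019 over all genes. The 7 genes called were ATP6V1A, ATP6V1B2, ATP6V1D, ATP6V1E1, ATP6V0B, ATP6V0C and ATP6V0D1, and the 3 not called were ATP6V1C1, ATP6V1G1 and ATP6V1H. In bulk RNA, a change in the share of cells and a change of RNA per cell cannot be told apart.

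**Figure D1:**
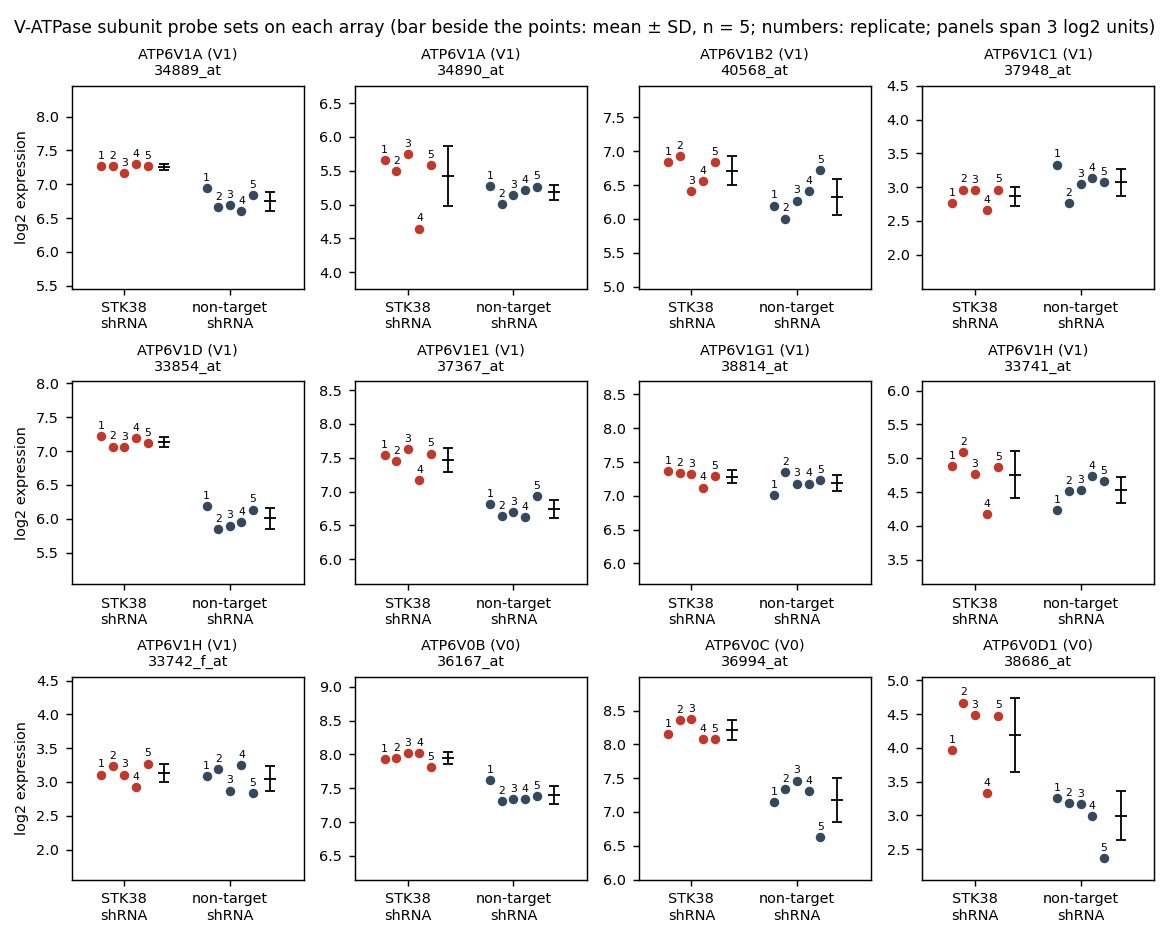
Log2 expression of the 12 V-ATPase probe sets on each array, STK38 shRNA left and non-target shRNA right of each panel; numbers are replicates, bars the mean ± SD (n = 5), and each panel spans 3 log2 units. The groups are apart for ATP6V1A (brighter probe set), ATP6V1D, ATP6V1E1, ATP6V0B, ATP6V0C and ATP6V0D1, and overlap in the other 6 panels.

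The catalytic head subunits ATP6V1A and ATP6V1B2 were called higher at their brightest probe sets. ATP6V1A, which encodes the subunit that hydrolyses ATP, had values of 7.27, 7.27, 7.17, 7.30 and 7.27 on the STK38 shRNA arrays and of 6.94, 6.66, 6.69, 6.61 and 6.84 on the control arrays at its brighter probe set. Every STK38 shRNA array lay above every control array, and the log2 difference was 0.51 (SE 0.087), a fold of 1.42. At the dimmer ATP6V1A probe set the values were 5.66, 5.49, 5.74, 4.64 and 5.58 with the STK38 shRNA and 5.27, 5.01, 5.14, 5.22 and 5.26 in the controls. There 4 STK38 shRNA arrays were above all controls and replicate 4 was below all of them, so the groups overlapped and the difference of 0.24 (SE 0.18) was not called; without replicate 4 it was 0.44 and was called.

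ATP6V1B2, the widely expressed isoform of the nucleotide-binding B subunit, had values of 6.84, 6.93, 6.41, 6.56 and 6.83 with the STK38 shRNA and of 6.20, 6.00, 6.27, 6.41 and 6.72 in the controls. Only 3 STK38 shRNA arrays exceeded the highest control, replicate 5. The log2 difference was 0.40 (SE 0.14), and this was the least secure of the 7 calls: it was lost in 7 of the 10 fits that left out an array (STK38 shRNA replicates 1, 2 or 5, or non-target replicates 1, 2, 3 or 4), and with array-median centring and without the filter.

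The central shaft subunit stood out within V1. ATP6V1D had values of 7.22, 7.07, 7.06, 7.19 and 7.12 with the STK38 shRNA, against 6.19, 5.85, 5.90, 5.95 and 6.13 in the controls. The groups were 0.88 log2 units apart at their nearest arrays, the widest gap of the 12 probe sets, and the difference of 1.13 (SE 0.094) is a fold of 2.19. Its promoter window, printed above, holds neither CACGTG nor the GC box GGGCGG.

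The peripheral stalk subunits differed from each other. ATP6V1E1, the E subunit, had values of 7.54, 7.45, 7.63, 7.16 and 7.56 with the STK38 shRNA and of 6.82, 6.64, 6.69, 6.63 and 6.93 in the controls. The groups did not overlap, replicate 4 was the lowest of its group, and the difference was 0.73 (SE 0.10), a fold of 1.66. ATP6V1G1, the G subunit that pairs with E in each stalk, had values of 7.36, 7.33, 7.32, 7.12 and 7.30 with the STK38 shRNA and of 7.01, 7.35, 7.18, 7.18 and 7.23 in the controls. The groups overlapped and the difference was 0.10 (SE 0.086), not called, with a range of 0.049 to 0.14 over 18 alternative settings. ATP6V1G1 is the member whose window holds the longer palindrome.

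The subunits that tie the stalks to the membrane sector were not called. ATP6V1C1, the C subunit, had values of 2.77, 2.96, 2.96, 2.67 and 2.97 with the STK38 shRNA and of 3.33, 2.76, 3.04, 3.13 and 3.08 in the controls. It was the 1 member with a negative difference (-0.21, SE 0.12, range -0.28 to -0.14 over the alternatives), and its signal was close to the array background of 2.36 to 2.66. ATP6V1H, the H subunit that inhibits ATP hydrolysis by free V1, had values of 4.88, 5.09, 4.76, 4.17 and 4.87 with the STK38 shRNA and of 4.23, 4.51, 4.53, 4.73 and 4.66 in the controls at its brighter probe set. Again 4 STK38 shRNA arrays were above all controls and replicate 4 below them. The difference was 0.22 (SE 0.16) with all arrays and 0.37, then called, without replicate 4. The second ATP6V1H probe set, whose suffix marks probes shared within a sequence family, had a difference of 0.08 (SE 0.12) with overlapping groups.

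All 3 V0 members were higher on every STK38 shRNA array than on any control. ATP6V0C, the proteolipid c subunit that makes up most of the proton-carrying ring, had values of 8.15, 8.36, 8.37, 8.08 and 8.08 with the STK38 shRNA and of 7.15, 7.34, 7.46, 7.30 and 6.63 in the controls. The difference was 1.03 (SE 0.13), a fold of 2.04, and it was 0.89 without non-target replicate 5, the lowest control. ATP6V0B, the related c'' proteolipid of the same ring, had values of 7.93, 7.95, 8.02, 8.02 and 7.82 with the STK38 shRNA and of 7.63, 7.31, 7.33, 7.34 and 7.39 in the controls. Its difference of 0.55 (SE 0.082), a fold of 1.46, stood beside 1.03 for ATP6V0C, and the difference between these values was not tested.

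ATP6V0D1, the d subunit that joins the ring to the central shaft, had values of 3.96, 4.67, 4.48, 3.33 and 4.48 with the STK38 shRNA, against 3.26, 3.18, 3.17, 3.00 and 2.37 in the controls. The difference of 1.19 (SE 0.24), a fold of 2.28, was the largest of the 12 with all arrays and had the largest error. Without non-target replicate 5 it was 1.03, beside 1.16 for ATP6V1D, which was then the larger. The nearest arrays, STK38 shRNA replicate 4 and non-target replicate 1, were 0.071 log2 units apart. Non-target replicate 5 was below its array background, and the other 4 controls and all 5 STK38 shRNA arrays were above theirs. With the human reverse-strand controls left out of the background, a setting added after the values were seen, all 5 controls were above it. This setting lowered the background on every array and so brought other dim genes over it as well. Without STK38 shRNA replicate 4 the difference was 1.40, and over all alternatives it ran from 1.03 to 1.40.

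Between the sectors, the median log2 difference was 1.03 over the 3 V0 genes and 0.40 over the 7 V1 genes, each at its brightest probe set. The difference of these medians, V1 minus V0, was -0.64, with a range of -0.76 to -0.40 over 19 alternative settings. The end nearest 0 came from leaving out non-target replicate 5. No test was run, since members are not replicates. Non-member V0 subunits are not in these medians, and the settings did not vary this choice of genes. Those tested had 1.42 (ATP6V0E1), 0.36 (ATP6V0E2), 0.29 (ATP6V0A2) and -0.08 (TCIRG1), so the V0 median describes the member genes only. On single arrays, the V0 median lay 0.62 to 1.19 above the control mean with the STK38 shRNA and between -0.55 and 0.23 in the controls. The V1 median lay 0.23 to 0.56 above it with the STK38 shRNA and between -0.10 and 0.13 in the controls. V1 minus V0 was negative on all 5 STK38 shRNA arrays. It was also negative on 4 of the 5 control arrays, but each gene was centred on its control mean. The low V0 value of non-target replicate 5 thus raised V0 on the other controls and on all 5 STK38 shRNA arrays. Neither count is read as a sector pattern. The V1 range of differences, from -0.21 to 1.13, contains the V0 values of 0.55 and 1.03 and ends just under the 1.19 of ATP6V0D1. A grouping by moving parts was made after the values were seen, so these values cannot serve as evidence for that grouping. It was not tested. In it the shaft and ring subunits ATP6V0D1, ATP6V1D and ATP6V0C had the 3 largest member differences, 1.19, 1.13 and 1.03. The stalk subunit ATP6V1E1 followed at 0.73 and the ring subunit ATP6V0B at 0.55. Of the non-member subunits tested, ATP6V0E1 and ATP6AP1 had 1.42 and 0.82, and the others lay below 0.55.

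**Figure D2:**
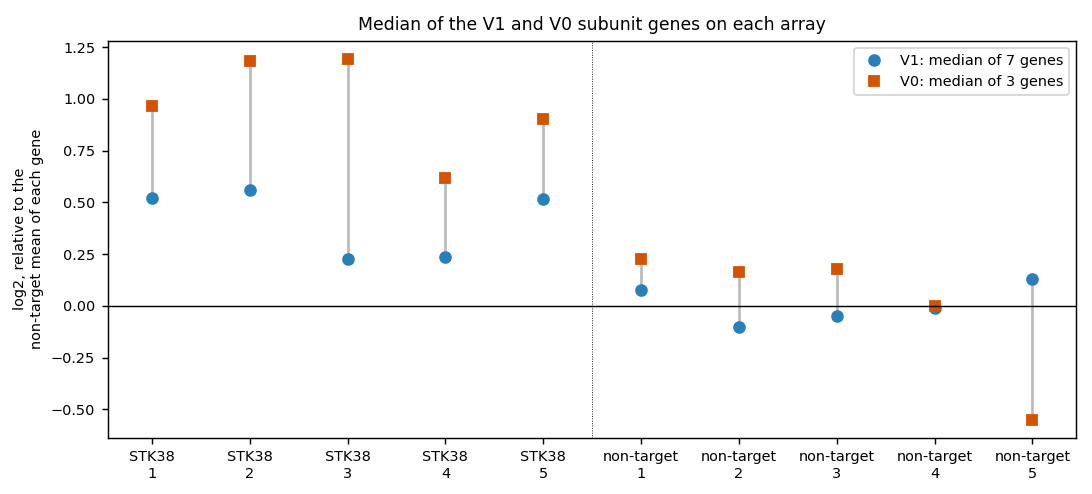
Median log2 deviation of the 7 V1 genes (circles) and the 3 V0 genes (squares) from each gene's non-target mean, on each array. The V0 median is above the V1 median on all 5 STK38 shRNA arrays, with V1 minus V0 from -0.97 to -0.38. The same holds on 4 of the 5 control arrays, with V1 minus V0 from -0.26 to -0.01. On non-target replicate 5 the V0 median lies below, at -0.55. Since each gene is centred on its control mean, this low array raises V0 on the other controls and on the STK38 shRNA arrays.

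STK38 shRNA replicate 4 stood apart over the whole table, with a mean correlation of 0.982 with its own group (0.992 or 0.993 for the other 4) and a 75th percentile of 3.54 (3.93 to 4.02). It had the lowest value of its group at 8 of the 12 member probe sets, where replicates 1 and 2 had none. Leaving it out kept the 7 member calls and added the dimmer ATP6V1A and the brighter ATP6V1H probe set, which makes 9; array weights gave the same 9. The part of this array's quality in these values was not tested.

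Other subunits of the pump, a list compiled from general knowledge with earlier results of these data known, were measured for 9 of 15 genes, of which 6 passed the filter. Limma called 3 genes higher and 0 lower (4 and 0 at an unadjusted p under 0.05), beside 15.2% and 15.8% of all 5403 genes at their brightest probe sets. ATP6V0E1, a small membrane subunit of V0, had values of 6.93, 7.28, 6.98, 7.17 and 7.16 with the STK38 shRNA, against 5.65, 5.91, 5.71, 5.74 and 5.39 in the controls. The groups did not overlap, and the difference of 1.42 (SE 0.11, adjusted p = 3.35e-07), a fold of 2.68, exceeded every member value; its second probe set, at 1.81 and 1.80, was below background on all arrays and was not tested. ATP6AP1, an accessory subunit that helps V0 to assemble, rose by 0.82 (SE 0.091, adjusted p = 9.56e-06), with 6.90 ± 0.07 against 6.08 ± 0.13 (SD, n = 5 each).

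ATP6V0E2, the second e isoform, had 6.87 ± 0.18 with the STK38 shRNA and 6.51 ± 0.17 in the controls (SD, n = 5 each), a difference of 0.36 (SE 0.11, adjusted p = 0.0250). That call was lost without STK38 shRNA replicate 2 or 5 or non-target replicate 1 or 5 (adjusted p 0.0553 to 0.0728, range over all alternatives 0.00749 to 0.0728), and the name of its probe set rests on the platform annotation alone. ATP6AP2, the accessory subunit known as the prorenin receptor, had -0.14 (SE 0.17, adjusted p = 0.615) at its brighter probe set, with overlapping groups, beside 0.82 for ATP6AP1. Among the a subunits, which form the proton half-channels and steer the pump to different membranes, TCIRG1 (a3) had -0.08 (SE 0.12, adjusted p = 0.723), with a signal over background on 4 STK38 shRNA and 3 control arrays. ATP6V0A2 had 0.29 (adjusted p = 0.130, SE 0.14), with a signal over background on 3 arrays with the STK38 shRNA and 0 controls, and it was called without STK38 shRNA replicate 4 (adjusted p = 0.00200) and with array weights, while over all alternatives the adjusted p ran up to 0.300. ATP6V0A1, ATP6V1B1 and ATP6V1G2 were below background on all 10 arrays. ATP6V1F is represented by a probe set that names several genes and was not used.

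**Figure D3:**
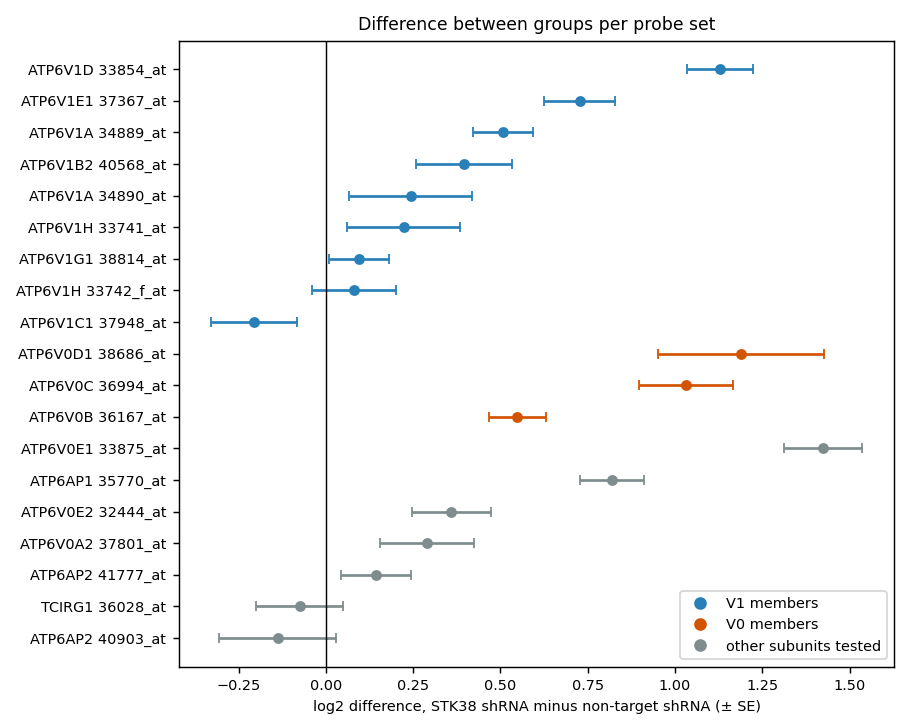
Log2 difference between STK38 shRNA and non-target shRNA arrays (± SE from the fit) for each member probe set and for the other subunits that passed the filter. ATP6V0E1 at 1.42 lies above all members, and ATP6V1C1 at -0.21 is the lowest point.

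Genes that act with the pump were summarised from further lists, also compiled with earlier results known. For comparison, 15.2% of all 5403 genes tested were called higher and 15.8% lower. Of the chloride-proton antiporters and ion channels of endosomes and lysosomes, 3 of 14 genes were tested, and 2 rose and 0 fell (2 and 0 at an unadjusted p under 0.05): CLCN6 by 1.07 (SE 0.18, adjusted p = 0.000314) and CLCN7, the lysosomal antiporter, by 0.75 (SE 0.13). CLCN3, below background on all arrays, had 0.09. Of a list of Rag, Ragulator and mTORC1 genes and their regulators, 5 of the 8 tested rose and 0 fell (5 and 0 unadjusted), with a median of 0.46. The Rag GTPase gene RRAGD rose by 0.63 (SE 0.10), and TSC1 and TSC2, whose products together inhibit mTORC1, rose by 0.80 (SE 0.18) and 0.51 (SE 0.15). Of the factors that assemble V1 onto V0, WDR7 rose by 0.72 (SE 0.18, adjusted p = 0.00626) and DMXL1, over background on 2 STK38 shRNA arrays and 0 controls, had 0.06 (adjusted p = 0.775). Of the 4 MIT-TFE genes, TFE3 was called higher (difference 0.30, adjusted p = 0.0153), but its signal exceeded background on 2 arrays with the STK38 shRNA and 0 controls, so no fold is given, and the call was lost without non-target replicate 4 (adjusted p = 0.0508, the highest of a range from 0.00168); TFEB, over background on 1 STK38 shRNA array and 0 controls, had 0.21 (adjusted p = 0.148), and MITF and TFEC were below the filter.

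Set beside related genes, 18 of 35 lysosomal hydrolase and membrane protein genes rose and 2 fell, with a median of 0.42. At an unadjusted p under 0.05 the counts were 21 and 3. Of all genes tested, 15.2% were called higher and 15.8% lower. The largest rises were those of NEU1 (2.03, SE 0.13), PSAP (1.73) and LIPA (1.37), and the 2 genes that fell were CTSC (-1.04) and LGMN (-0.74). The F-type ATP synthase of mitochondria, the rotary relative of the V-ATPase, had 5 of 14 genes higher and 2 lower. Its counts at an unadjusted p under 0.05 were 6 and 3, and its median was 0.11. ATP5MG rose by 0.83 (SE 0.17), ATP5PO rose by 0.32 and ATP5F1C, the F-type shaft subunit, fell by 0.54 (SE 0.072). Of 8 P-type pump genes 2 rose and 2 fell (2 and 2 at an unadjusted p under 0.05), with a median of 0.044. ATP2C1 rose by 0.68, and ATP2B1 and ATP1B3 fell by 0.42 and 0.32. The other gene called higher, ATP2B4 (0.28), was over background on 0 STK38 shRNA and 0 control arrays. ATP2B1 was over background on 3 STK38 shRNA arrays and all 5 controls. Whether the V-ATPase members differ from any of these lists was not tested.

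**Figure D4:**
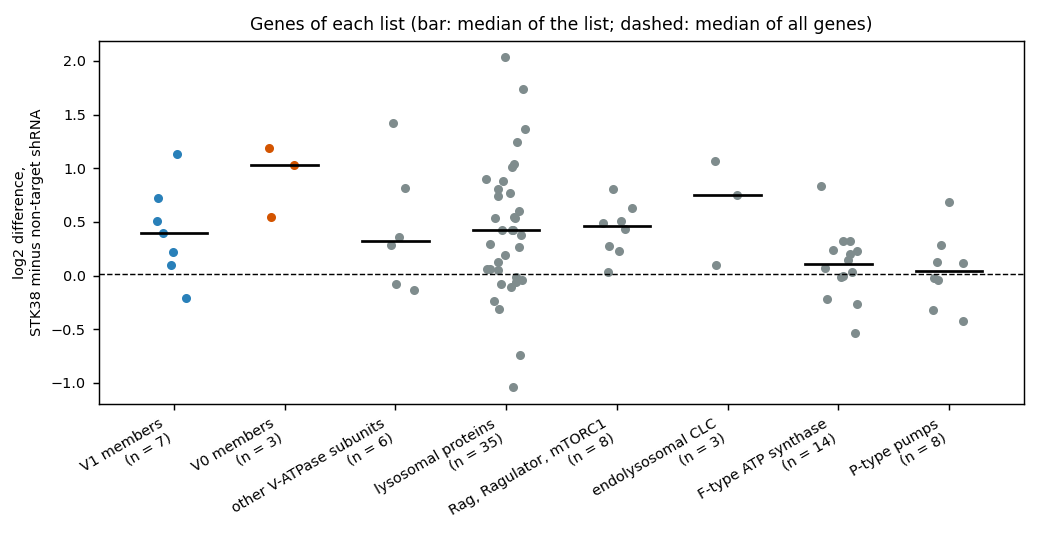
Log2 difference of each tested gene (points) at its brightest probe set, with the median of each list (bars) and of all genes (dashed, 0.019). V0 members lie at 0.55 to 1.19, V1 members at -0.21 to 1.13 and F-type ATP synthase genes at -0.54 to 0.83.

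The genes whose array profile lay nearest to each sector were found by the root mean square difference between centred log2 profiles over the 10 arrays, among non-member genes. Nearest to the V1 mean were MBTPS1 (0.063), ST13 (0.066), LAMTOR5 (0.071) and UFD1 (0.074), with log2 differences of 0.35, 0.50, 0.49 and 0.37. Nearest to the V0 mean were SPTSSA (0.124), TARBP2 (0.135), ATXN7L3B (0.141) and USP33 (0.144), with log2 differences of 0.85, 1.01, 0.74 and 0.91. The profiles include the difference between the groups, so the log2 differences of these neighbours follow from how they were chosen. The V0 profile is a mean of only 3 genes with larger differences, so its larger distances are not compared with those of V1.

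The differences of members with and without CACGTG are set side by side here. Only 6 members had a window, and a link between match and difference was not tested. The 3 members with a match had differences of 1.19 (ATP6V0D1), 0.55 (ATP6V0B) and 0.10 (ATP6V1G1), and the 3 without had 1.13 (ATP6V1D), 1.03 (ATP6V0C) and 0.73 (ATP6V1E1). Over the genes tested on the array that have a window, the motif was present in 12.9% of 703 genes called higher, 14.7% of 721 called lower and 12.8% of 3070 not called. The GC box GGGCGG, searched on both strands, was present in 4 of the 6 members and 48.3% of all genes. Among the genes tested on the array it was present in 76.5% of those called higher, 82.1% of those called lower and 74.4% of those not called. TATAAA, on both strands, was present in 1 of the 6 members (in 1 of the 2 windows of ATP6V1E1) and 13.99% of all genes. A match is a description of these letters, and its absence is limited to this window of 300 bases.

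**Figure D5:**
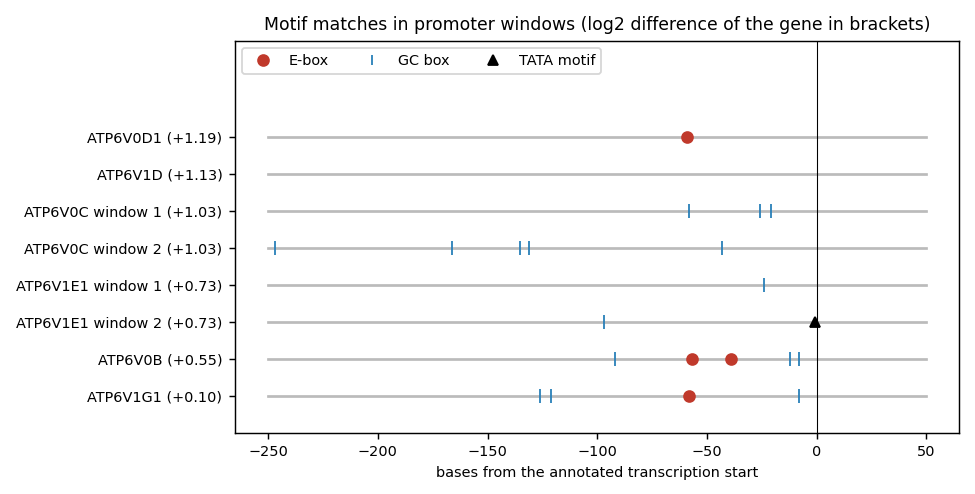
Positions of the E-box core (circles), the GC box (ticks) and the TATA motif (triangle) from 250 bases before to 50 after the transcription start of the 6 members with a promoter window, ordered by log2 difference (in brackets). E-box cores lie between -59 and -39 in ATP6V0D1, ATP6V0B and ATP6V1G1.

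The knockdown and the cell type were checked on the same arrays. The brightest STK38 probe set fell by 2.19 in log2 signal (adjusted p = 5.65e-08, SE 0.14) and that of MYC by 1.38 (adjusted p = 9.56e-06, SE 0.15). The other STK38 probe sets fell by 1.16 (SE 0.22) and 0.82 (SE 0.19). With the STK38 shRNA the 3 STK38 probe sets were over background on 4, 5 and 2 arrays, and in the controls on all 5. Of 7 B cell markers measured, CD79A, CD79B, MS4A1, CD22 and IGHM were above background on all 10 arrays, and PAX5 and CD37 on none. CD79A was called higher (0.49) and IGHM lower (-0.48). The summed linear signal of the list was 2388 to 2795 with the STK38 shRNA and 2951 to 3320 in the controls. IGHM had the highest log2 signal of the list, 10.70 with the STK38 shRNA against 11.17 in the controls, so this sum mainly follows IGHM. Markers of monocytes and macrophages, cells rich in V-ATPase, were near background: of 11 genes, 8 (among them CD14, CSF1R, CD163 and CD68) were above it on no array and 0 on all, and their summed linear signal was 38.4 to 53.9 with the STK38 shRNA and 39.6 to 43.2 in the controls. Of 8 T cell markers, TRBC1 was above background on all arrays and CD3D, CD3E, CD3G, CD2, CD5 and CD7 on none. TRBC1 (-0.52) and CD247 (-0.55) were called lower. The sums of this list were 213 to 265 with the STK38 shRNA and 305 to 384 in the controls. Erythroid (2 genes), fibroblast (4 genes) and epithelial (6 genes) markers were above background on no array for 2, 3 and 3 genes, with KRT8 above it on all.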

How the data were processed

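RNA of 10 samples was measured on 1-colour Affymetrix HG-U95Av2 arrays. The values are log2 expression per probe set as deposited; the submitters' processing notes name GCRMA and affy, with no version, and other steps are not given in the sources used here. Of 12625 probe sets, 67 control probe sets were set aside; 10943 of the rest name 1 gene, 545 several and 1070 none, and only those naming 1 gene were given a gene name. Probe sets whose mean over all arrays reached the 40th percentile were tested (7535). STK38 shRNA minus non-target shRNA was fitted with limma 3.58.1 in R 4.3.3 (lmFit, eBayes with a variance trend) with Benjamini-Hochberg adjustment at 0.05; the fit was tested on simulated data. A probe set was above background on an array when it exceeded the 90th percentile of 23 reverse-strand, mouse and yeast control probe sets (2.36 to 2.66). A gene with several probe sets was summarised by its brightest. The number of arrays limits the precision. Figures were drawn with matplotlib 3.10.9.

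The members and all gene lists were chosen with earlier results of these data known. Named were all members, all other subunits measured, STK38 and MYC, and the 4 non-member genes nearest to each sector's profile. Up to 3 genes of each further list were also named (called genes first, then by size of difference). Genes outside this rule, such as the cell type markers, are named for their list. ATP2B4, CTSC and LGMN are named because they limit the count of their list. Alternatives were array-median centring, quantile normalization, array weights, no filter, a filter at the 60th percentile, other variance settings, a replicate block, the mean over a gene's probe sets and leaving out each array. Promoter sequences are from RefSeq (GRCh38.p14).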

Additional observations from a re-analysis of the deposited data

Results flagged for a closer look

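In 7 of the 60 groups of 5 arrays examined, 1 array lay far from the other 4 of its group; chance alone marks about 5% of such groups. STK38 shRNA replicate 4 was the low array in 4 of them. Its value was 4.64 for the dimmer ATP6V1A probe set, where the nearest array had 5.49, and 7.12 for ATP6V1G1, where the nearest had 7.30. It was also low for ATP6AP1 at 6.76 (nearest 6.91) and for the brightest STK38 probe set at 2.46 (nearest 2.88). STK38 shRNA replicate 3 was low for the brighter ATP6V1A probe set at 7.17, where the nearest array had 7.27, and high for a second MYC probe set at 6.97 (nearest 6.48). Non-target replicate 1 was high for ATP6V0B at 7.63 (nearest 7.39), and still lay below all STK38 shRNA arrays.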

How the results depend on the processing

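Over 18 alternative settings the direction of each of the 12 member differences was kept. The number of member probe sets called higher ran from 6 to 9 and the number called lower was 0 throughout. The V0 median ran from 0.89 to 1.10, the V1 median from 0.32 to 0.49 and their difference, V1 minus V0, from -0.76 to -0.40, with the same ranges when single arrays were left out. Over all probe sets, 1938 to 2836 were called when single arrays were left out, with 867 to 1559 higher and 1046 to 1277 lower. Array weights gave 2970 calls, 1619 of them higher, against 1064 higher without weights; the cause was not tested. With the replicate block, 2159 probe sets and 6 members (without ATP6V1B2) were called, and the medians were 1.03 for V0 and 0.40 for V1. Same-numbered arrays did not deviate together (residual correlations from -0.21 to 0.19), so the numbers were not read as pairs. Calls on few genes moved most: 0 or 1 of the MIT-TFE genes, 1 to 3 F-type genes lower and 1 to 3 P-type genes higher. Signal near background limits ATP6V1C1, ATP6V0D1, ATP6V0A2, TCIRG1, ATP2B1, DMXL1, TFEB and TFE3, among others. With the human reverse-strand controls left out of the background, TFE3 was over it on 5 STK38 shRNA and 5 control arrays. TFEB and CLCN3 were then over it on 5 and 4, and ATP2B4 on 4 and 2.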
